A study of Mus musculus with 4 samples.

Results

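The subject is 9 transcription factors that pattern the nephron and the ureteric bud of the fetal kidney: Pax2, Pax8, Wt1, Lhx1, Emx2, Gata2, Gata3, Pou3f3 and Tfap2b. They were found on the arrays through the RefSeq transcript that each probe names, which gave 11 probes of 55681 that are not controls. Pax2 had 3 probes and the other 8 factors had 1 each. All 9 factors were well above background on all 4 arrays, so the filter on dim probes removed none of them. RNA came from embryonic mouse kidneys at E13.5, of a mixed 129 and C57BL/6 strain. The Sall1 knockout group (2 arrays) came from samples titled CreER KO, in which tamoxifen, given at E12.5, activates the Cre recombinase fusion CreER and deletes Sall1. The control group (2 arrays) came from samples titled flox, and the labels give the same tamoxifen day for both groups. The dissection was thus made 24 hours after the drug in each group. The labels do not say whether the control embryos carried CreER, or whether a sample was 1 embryo or a pool, so an effect of CreER cannot be told apart from that of Sall1, and the p-values measure only the spread between these samples.

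The ureteric bud, an outgrowth of the nephric duct, branches into the collecting ducts, and at its tips it induces the surrounding cap mesenchyme to form nephrons. Cap cells turn into an epithelial vesicle that is then patterned into podocytes, proximal tubule, loop of Henle and distal tubule. Pax2 and Pax8 are paired box factors that act together from the nephric duct onward, Wt1 is a zinc finger factor of nephron progenitors and later of podocytes, and Lhx1 is a LIM homeobox factor of the duct and of the early vesicle. Emx2 is a homeobox factor of the bud, Gata2 and Gata3 are zinc finger factors of the duct and bud lineage, Pou3f3, also known as Brn1, is a POU factor of the distal vesicle and the loop of Henle, and Tfap2b is an AP-2 factor of the distal nephron. Sall1, the deleted gene, encodes a zinc finger factor of the cap mesenchyme.

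Signals are given as log2 of the ratio to the 75th percentile of spots on the same array, so that 0 is a spot at that percentile. That percentile was 535.1 and 523.1 in the knockout arrays and 600.0 and 549.4 in the control arrays. Each array held 62976 spots, and 60.6% to 64.2% of the non-control spots were well above background. Probe signals depend on the probe, so levels are compared between arrays and not between genes. Sall1 itself had signals of 1.03 and 1.06 in knockout kidneys and 1.79 and 1.80 in control kidneys, a log2 difference of -0.75 ± 0.056 (SE). Both knockout values were below both control values. The adjusted p in limma was 0.125, or 0.00142 with a variance prior that follows the signal and is robust to outlying genes, under which Sall1 passed. Sall1 RNA was thus lower in the kidneys labelled knockout but still well above background, and the sources used here do not say whether its probe lies inside the deleted part.

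Of the 9 factors, Pax8, Gata2 and Pax2 had the largest positive differences between the groups, and Pou3f3 and Lhx1 the largest negative ones. The size of the 9 differences ran from 0.028 to 0.37 on the log2 scale, beside -0.75 for Sall1. In limma with Benjamini-Hochberg adjustment over 25083 genes and unnamed sequences, 0 of the 9 factors passed at an adjusted p under 0.05, where the percentage called over all tested was 0%. At an unadjusted p under 0.05 there were 2 factors with higher signal in knockout kidneys, Gata2 and Pax8, where 6.85% of all tested were higher, and 2 with lower signal, Lhx1 and Pou3f3, where 5.84% were lower. These 4 of 9 stand beside 12.7% of all tested in either direction. With the prior that follows the signal, again 0 factors passed, although 1.16% of all tested did, and Gata2 came closest (adjusted p = 0.0631 in limma). The median difference of the 9 factors was 0.099, beside -0.011 over all tested.

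In 4 factors, Pax2, Pax8, Wt1 and Gata2, both knockout arrays lay above both control arrays, and in 2, Lhx1 and Pou3f3, both lay below. Over all tested the same held for 21.8% above and 27.4% below, so the separation of groups in 6 of 9 factors stands beside 49.2% of all tested. Centring each array on its median instead of its 75th percentile left 2 factors above and 2 below, with 15.7% and 35.2% of all tested, and Pax2 and Wt1 then overlapped. In 5 of the 9 factors, Pax2, Pax8, Lhx1, Gata2 and Pou3f3, the difference of the group means was larger than the gap between the replicates of either group, which also held for 35.8% of all tested.

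**Figure D1:**
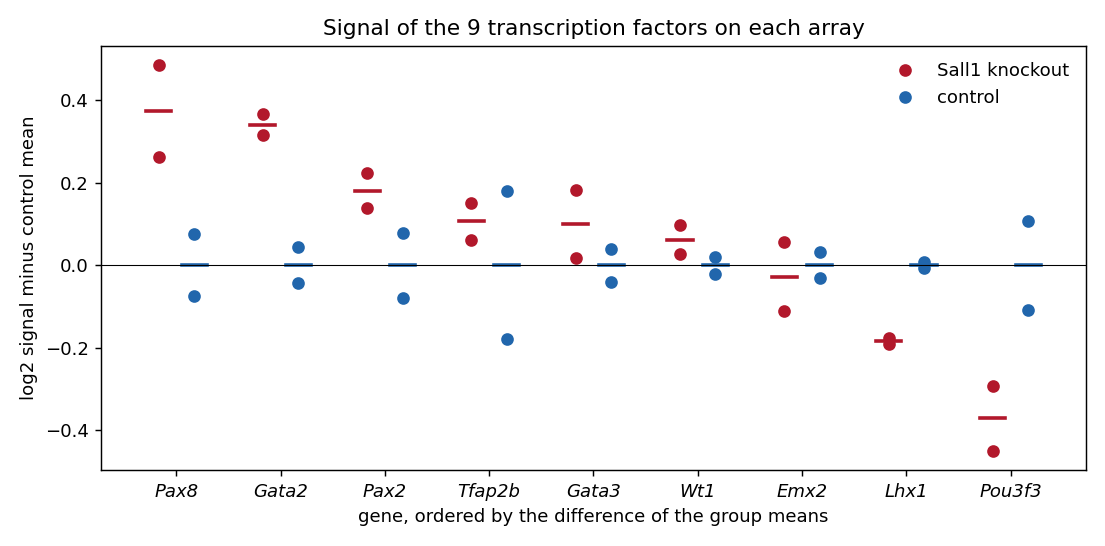
Each point is 1 array, plotted as log2 signal minus the mean of the control arrays of that gene, with Sall1 knockout in red and control in blue, and bars are group means (n = 2 each). Knockout points lie above the control points for Pax8, Gata2, Pax2 and Wt1 and below them for Lhx1 and Pou3f3, while Tfap2b, Gata3 and Emx2 overlap.

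**Figure D2:**
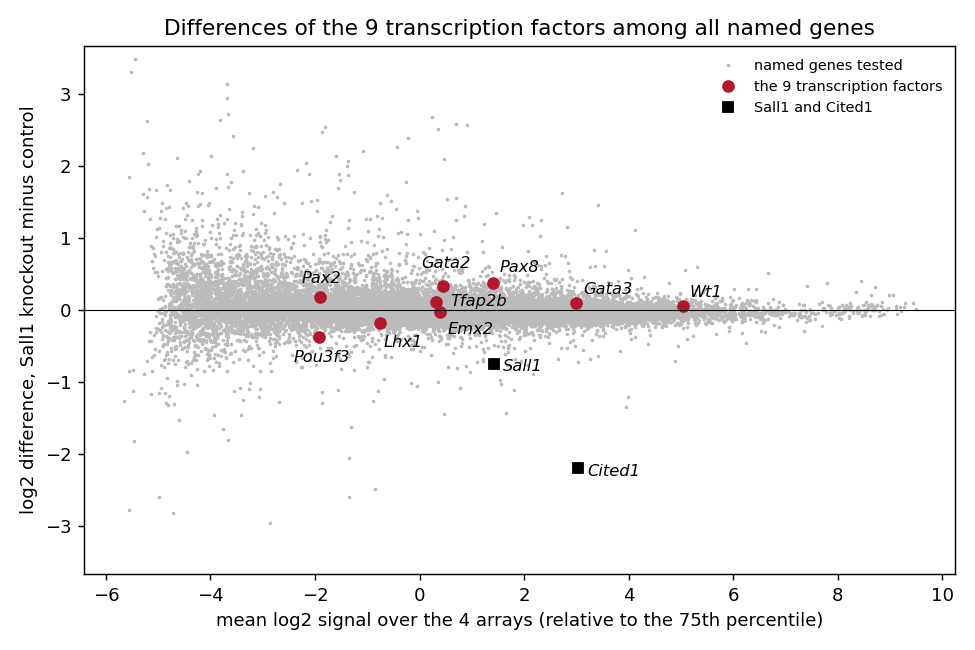
The log2 difference, Sall1 knockout minus control, is plotted against the mean log2 signal over the 4 arrays for every named gene tested (grey), the 9 factors (red), and Sall1 and Cited1 (black). The factors span from -0.37 for Pou3f3 to 0.37 for Pax8 and lie within the grey cloud, whereas Sall1 lies at -0.75 and Cited1, a marker of uncommitted progenitors, at -2.20.

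Promoter sequences of the 4 factors with an unadjusted p under 0.05 are shown because they are the ones whose RNA differed most for its error, 2 in each direction. They come from RefSeq on build GRCm38.p6, run 5′ to 3′ along the gene, and cover 250 bases before and 50 after an annotated start. Of the 9 factors, 8 had at least 1 window in that table, with 11 windows in all. Capitals mark matches on either strand to the GC box, spelled GGGCGG or CCGCCC, and to the CCAAT box, spelled CCAAT or ATTGG.
Pax8, chr2:24475550-24475849, minus strand: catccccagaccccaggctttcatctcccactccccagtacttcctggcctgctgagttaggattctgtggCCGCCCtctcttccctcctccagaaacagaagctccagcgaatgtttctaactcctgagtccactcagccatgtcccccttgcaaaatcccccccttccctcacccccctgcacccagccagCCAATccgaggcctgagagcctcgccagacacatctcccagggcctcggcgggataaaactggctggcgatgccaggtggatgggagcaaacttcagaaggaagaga
Gata2, upstream start, chr6:88193641-88193940, plus strand: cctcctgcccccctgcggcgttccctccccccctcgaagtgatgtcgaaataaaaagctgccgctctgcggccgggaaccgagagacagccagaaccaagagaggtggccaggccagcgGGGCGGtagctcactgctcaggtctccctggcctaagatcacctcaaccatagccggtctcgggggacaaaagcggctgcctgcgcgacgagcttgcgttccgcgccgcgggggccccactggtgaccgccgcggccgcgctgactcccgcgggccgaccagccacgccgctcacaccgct
Gata2, downstream start, chr6:88198414-88198713, plus strand: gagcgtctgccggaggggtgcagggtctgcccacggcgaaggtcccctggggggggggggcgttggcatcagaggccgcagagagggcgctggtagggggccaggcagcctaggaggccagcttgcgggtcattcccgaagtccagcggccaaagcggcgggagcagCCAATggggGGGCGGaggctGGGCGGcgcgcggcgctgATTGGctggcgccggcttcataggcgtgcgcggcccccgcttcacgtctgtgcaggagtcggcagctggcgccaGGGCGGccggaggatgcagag
Lhx1, chr11:84525485-84525784, minus strand: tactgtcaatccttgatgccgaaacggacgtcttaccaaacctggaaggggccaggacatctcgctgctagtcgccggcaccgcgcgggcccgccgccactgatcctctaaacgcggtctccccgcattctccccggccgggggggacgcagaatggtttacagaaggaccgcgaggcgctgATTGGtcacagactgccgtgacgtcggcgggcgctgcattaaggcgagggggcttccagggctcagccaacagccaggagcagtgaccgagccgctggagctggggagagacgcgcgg
Pou3f3, chr1:42695518-42695817, plus strand: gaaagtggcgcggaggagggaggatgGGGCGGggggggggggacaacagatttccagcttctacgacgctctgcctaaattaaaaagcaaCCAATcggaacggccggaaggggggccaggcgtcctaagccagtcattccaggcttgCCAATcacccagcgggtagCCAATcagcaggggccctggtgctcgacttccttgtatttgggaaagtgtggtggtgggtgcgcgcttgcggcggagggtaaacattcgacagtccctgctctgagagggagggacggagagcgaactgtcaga
The Pou3f3 window held 3 CCAAT matches and 1 GC box, and the downstream Gata2 window held 2 and 3. The Lhx1 window held 1 CCAAT match on the reverse strand and no GC box, and the Pax8 window held 1 of each. Over all 32851 windows of this length, 37.4% held a CCAAT match and 35.7% a GC box, so neither motif is rare. The GC content was 59.3% for Pax8, 69.3% and 73.7% for the upstream and downstream Gata2 windows, 65.7% for Lhx1 and 60.3% for Pou3f3, against a median of 52.7% over all windows. All 5 windows lay above that median, whether the RNA was higher or lower in knockout kidneys. The letters TATAAA, read on both strands, were in none of the 11 windows and in 13.6% of all windows. The letters ATATT, an AT-rich motif known to be bound by SALL4, a paralogue of SALL1, were in none of these 5 windows and in 25.3% of all windows. They matched 3 times each in 1 of the 3 Pax2 windows and in the Tfap2b window, counting both strands and overlapping matches. The letters GATAA, the core that GATA factors bind, matched once in the Pax8 window and in none of the other 10, against 25.4% of all windows. These matches describe the letters in the windows and not binding.

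Pax8, which cap cells switch on as they become epithelial, had log2 signals of 1.47 and 1.70 in knockout kidneys and 1.14 and 1.29 in control kidneys. Both knockout arrays were higher, with knockout replicate 2 the highest. The group means differed by 0.37 ± 0.11 on this scale (SE, n = 2 each), a 1.29-fold higher signal with a 95% interval of 0.057 to 0.69 on the log2 scale. It did not pass over all genes (adjusted p = 0.363 in limma). In size it exceeded the differences of 90.6% of all tested genes and sequences.

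Pax2, the paired box factor of the duct, the bud and the cap, was read by 3 probes of the same transcript. On the brightest, log2 signals were -1.86 and -1.78 in knockout kidneys and -2.08 and -1.92 in control kidneys, a difference of 0.18 ± 0.084 (SE) that did not pass (adjusted p = 0.462 in limma). On the next, they were -2.27 and -2.28 in knockout kidneys and -2.51 and -2.60 in control kidneys, a difference of 0.28 ± 0.067 (SE) when every probe was its own row (adjusted p = 0.336). On both probes the knockout arrays were above the control arrays, though the second put the gap at a larger value. The dimmest probe had processed signals of 41.5 and 25.8 in knockout kidneys and 34.9 and 37.8 in control kidneys. Its groups overlapped and its difference was -0.031 ± 0.26 (SE), so the widest spread and the opposite sign went with the lowest signal. Averaged over the 3 probes, Pax2 differed by 0.14, and its groups overlapped.

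Wt1 had log2 signals of 5.03 and 5.10 in knockout kidneys and 5.02 and 4.98 in control kidneys, which is 32.6 and 34.3 times the 75th percentile in knockout kidneys and 32.5 and 31.6 times in control kidneys. The difference was 0.062 ± 0.062 (SE), with a 95% interval of -0.11 to 0.24, or 0.023 with arrays centred on the median and 0.027 without Sall1 knockout replicate 2. The groups did not overlap, but the gap between the knockout replicates, 0.070, was larger than the difference, and Wt1 did not pass (adjusted p = 0.687 in limma). Some other genes of the same cells had negative differences. Six2, which keeps cap cells undifferentiated, differed by -0.51 ± 0.089 (SE), and Gdnf, the ligand for the bud receptor Ret, by -0.68 ± 0.097 (SE). Both passed only with the prior that follows the signal. Not all progenitor genes were lower: Eya1, named after its value was seen, differed by 0.064 ± 0.072 (SE), and its groups overlapped. Wt1os, the long noncoding RNA that neighbours Wt1 in RefSeq, differed by 0.20 ± 0.092 (SE) and did not pass.

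Lhx1 had the tightest replicates of the 9 factors, with log2 signals of -0.84 and -0.85 in knockout kidneys and -0.67 and -0.65 in control kidneys. The gaps between replicates were 0.014 and 0.016, and both knockout arrays were lower. The log2 difference was -0.18 ± 0.055 (SE), a signal 0.88 times that of control kidneys, with a 95% interval of -0.34 to -0.029. It did not pass over all genes (adjusted p = 0.362 in limma). Of the signals around the vesicle, Fgf8, which Lhx1 expression needs there, differed by -0.34 ± 0.068 (SE) and did not pass. Dkk1, a secreted Wnt inhibitor of the vesicle, had signals of -0.26 and -0.052 in knockout kidneys and 0.66 and 1.03 in control kidneys, and did not pass either. Of the 15 nascent nephron genes, 3 were lower, including Fgf8 and Dkk1, and 4 higher without overlap. Over all tested, 27.4% were lower and 21.8% higher in this way. Irx1 (1.53 ± 0.31, SE) and Npy (0.30 ± 0.066, SE) were among the higher ones, and the list median was -0.047.

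**Figure D3:**
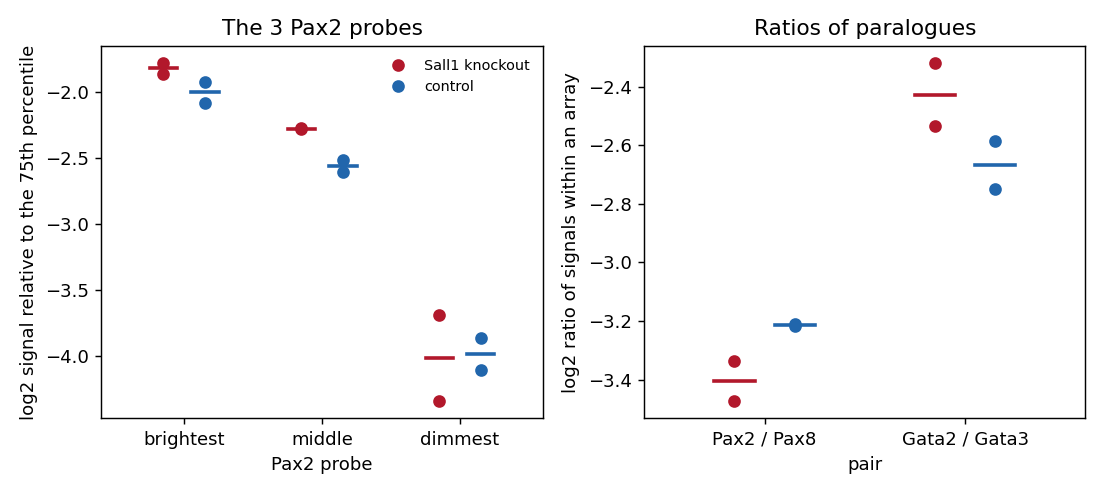
Left, log2 signal of the 3 Pax2 probes over the 75th percentile of its array, and right, log2 ratio of Pax2 to Pax8 and of Gata2 to Gata3 within each array. Red points are Sall1 knockout arrays, blue points control arrays, and bars group means (n = 2 each). The dimmest Pax2 probe overlaps between the groups, and both ratios, drawn with the brightest Pax2 probe, separate them, in opposite directions.

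Gata2 had log2 signals of 0.64 and 0.59 in knockout kidneys and 0.32 and 0.24 in control kidneys. The replicates differed by 0.051 and 0.086, well under the gap between the groups. The log2 difference was 0.34 ± 0.065 (SE), a 1.27-fold higher signal with a 95% interval of 0.15 to 0.52, and its adjusted p in limma, 0.272, was the smallest of the 9 factors. Gata2 is also made by endothelial, blood-forming and mast cells, and markers of some of these moved with the groups. The summed signal of 12 endothelial genes was 40.3 and 41.4 times the 75th percentile in knockout kidneys and 36.2 and 36.4 times in control kidneys. Of these genes 9 had knockout arrays above control arrays and 0 below, beside 21.8% and 27.4% of all tested. Their median difference was 0.20. The 12 tested erythroid and mast cell genes had a median of 0.25. Their sums overlapped, with 559.7 and 981.7 in knockout kidneys and 584.8 and 910.6 in control kidneys. Most of each sum came from 1 gene, the globin Hbb-y. Its log2 signals were 8.94 and 9.64 in knockout kidneys and 9.01 and 9.50 in control kidneys. The median of the 12 genes has no settled sign: it was 0.76 and -0.22 without Sall1 knockout replicates 1 and 2, and -0.28 and 0.77 without control replicates 1 and 2. The part of these cells in the Gata2 difference was not tested. In RNA of an entire organ, more cells of a type and more RNA per cell cannot be told apart.

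Gata3, the GATA factor of the nephric duct and collecting duct that maintains Ret, had log2 signals of 2.96 and 3.13 in knockout kidneys and 2.91 and 2.99 in control kidneys. The groups overlapped, and the difference was 0.099 ± 0.086 (SE, adjusted p = 0.643 in limma), or 0.016 without Sall1 knockout replicate 2. Ret itself had signals of 0.52 and 0.57 in knockout kidneys and 0.81 and 0.83 in control kidneys, a difference of -0.28 ± 0.058 (SE) that did not pass. Emx2, the bud homeobox factor, had log2 signals of 0.30 and 0.47 in knockout kidneys and 0.38 and 0.44 in control kidneys. The knockout arrays lay on either side of the control arrays, and the difference of -0.028 ± 0.085 (SE, adjusted p = 0.901 in limma) turned to 0.056 without Sall1 knockout replicate 1 and to 0.0031 without control replicate 2. Its 95% interval ran from -0.27 to 0.21. Emx2os, the antisense RNA that neighbours Emx2, differed by -0.087 ± 0.059 (SE), which is also the median of the 3 tested noncoding neighbours, Wt1os, Emx2os and Pantr1. That median turned to 0.043 with normexp background correction.

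Paralogues that share a kind of DNA-binding domain were also set against each other within each array. With the brightest Pax2 probe, the log2 ratio of Pax2 to Pax8 was -3.34 and -3.47 in knockout kidneys and -3.22 and -3.21 in control kidneys, a difference of -0.19. The log2 ratio of Gata2 to Gata3 was -2.32 and -2.54 in knockout kidneys and -2.58 and -2.75 in control kidneys, a difference of 0.24. The standard deviation within groups was 0.069 and 0.14, and neither ratio overlapped between the groups. With the second Pax2 probe, a choice made after seeing the data, the Pax2 to Pax8 ratio was -3.75 and -3.98 in knockout kidneys and -3.65 and -3.89 in control kidneys, a difference of -0.088 with groups that overlapped. Because 2 arrays against 2 give an exact two-sided permutation p of at least 0.333, these ratios were not tested.

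Among the factors of the later segments, Pou3f3 had log2 signals of -2.03 and -2.19 in knockout kidneys and -1.85 and -1.63 in control kidneys. Both knockout arrays were lower, but replicates also differed, by 0.16 in knockout and 0.22 in control kidneys. The log2 difference was -0.37 ± 0.11 (SE), a signal 0.774 times that of control kidneys, with a 95% interval of -0.69 to -0.055 and an adjusted p of 0.364 in limma. Normexp background correction brought it to -0.23, still lower on both knockout arrays. Pantr1, a long noncoding RNA named for its place next to Pou3f3, was measured by its own probe, with signals of 0.64 and 0.71 in knockout kidneys and 0.81 and 1.08 in control kidneys. Its difference was -0.27 ± 0.12 (SE), in the same direction as Pou3f3, and did not pass. Loop and distal tubule genes, from segments in which Pou3f3 acts later, were partly too dim to test: 9 of 15 were tested, and Umod, Slc12a1, Slc12a3, Kcnj1, Cldn16 and Tmem52b were not well above background. The 9 had a median of 0.23, or 0.018 without control replicate 1. Without overlap 4 were higher and 0 lower, beside 21.8% and 27.4% of all tested. Sostdc1, a secreted inhibitor of BMP and Wnt ligands, differed by 0.95 ± 0.094 (SE) and passed only with the prior that follows the signal. Irx1, a homeobox factor of the forming tubule, differed by 1.53 ± 0.31 (SE) and passed with neither prior. Its control signals were low and apart, at -3.16 and -2.31.

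Tfap2b had the widest spread of the 9 factors, with log2 signals of 0.32 and 0.41 in knockout kidneys and 0.082 and 0.44 in control kidneys. Control replicate 1 was the lowest and control replicate 2 the highest of the 4 arrays. The difference was 0.11 ± 0.14 (SE, adjusted p = 0.771 in limma) with a 95% interval of -0.30 to 0.52, and it turned to -0.073 without control replicate 1. Tfap2b, Gata2 and Gata3 are also made by sympathetic neurons and chromaffin cells, whose 14 tested markers had a median of -0.19. Single arrays set that value, which was -0.51 and 0.049 without control replicates 1 and 2 and -0.0092 without Sall1 knockout replicate 2, and -0.081 with normexp background correction. The summed signal of these markers was 7.15 and 7.05 in knockout kidneys and 6.84 and 8.02 in control kidneys, so control replicate 2 was highest here too. Of these markers Stmn2, a neuronal microtubule regulator, differed by -0.46 ± 0.062 (SE) and Isl1 was not well above background. The part of these cells in the values of the 3 factors was not tested.

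**Figure D4:**
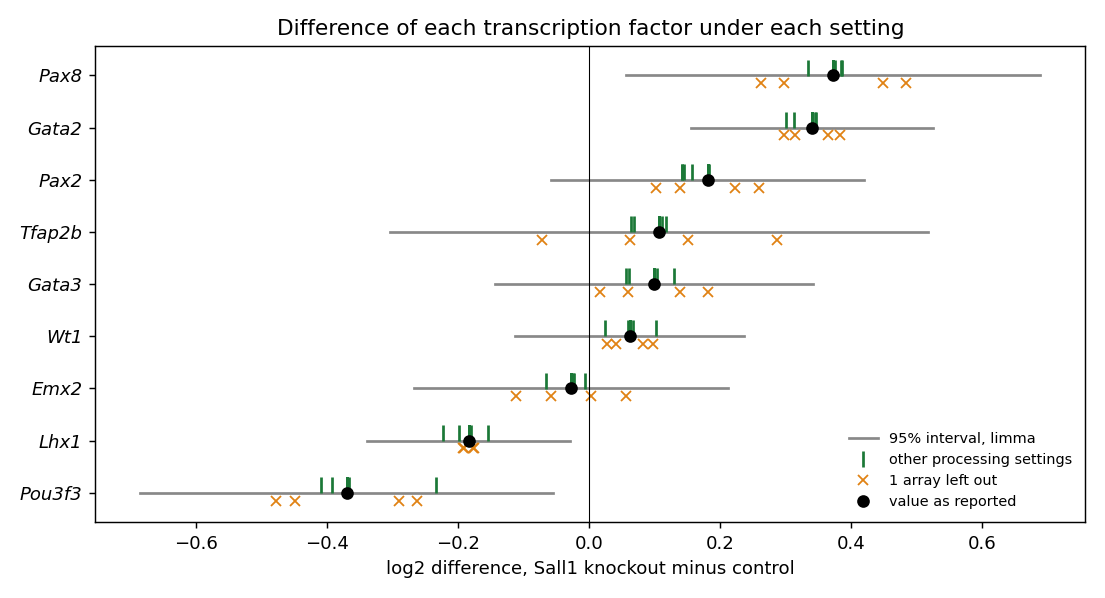
For each factor, the black point is the log2 difference, Sall1 knockout minus control, the grey line its 95% interval in limma, green ticks the value under the other processing settings, and orange crosses the value with 1 array left out. Pax8, Gata2, Pax2 (its brightest probe, or the mean of its probes), Gata3 and Wt1 stay above 0 and Lhx1 and Pou3f3 below 0 under every setting plotted, while Emx2 and Tfap2b cross 0.

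A list of 32 other epithelial transcription factors put these values in context. Of the 31 tested, 0 passed over all genes. Without overlap 15 were higher and 7 lower, beside 21.8% and 27.4% of all tested. The median difference was 0.11. Leaving out control replicate 1 or 2 gave a median of 0.034 or 0.19. Leaving out Sall1 knockout replicate 1 or 2 gave 0.17 or 0.060. With the prior that follows the signal, 4 of the 31 were higher and 0 lower, beside 0.538% and 0.622% of all tested. Those 4 were Klf5 (0.66 ± 0.068, SE), Foxi1, a factor of intercalated cells (0.63 ± 0.060), Ehf (0.57 ± 0.097) and Tfcp2l1, a factor of the collecting duct (0.46 ± 0.080). The ureteric bud list, which holds Tfcp2l1, had a median of 0.075 over 19 tested genes, which turned to -0.039 without control replicate 1. Of the 19, 7 were higher and 6 lower without overlap, beside the same 21.8% and 27.4% of all tested. The keratin Krt19 differed by 0.78 ± 0.067 (SE), passing only with the prior that follows the signal, and Slco4c1, a transporter, by -0.31 ± 0.068 (SE).

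A second list held 32 genes that depend on the 9 factors or work with them, and 26 were tested. Of these 0 passed, and 7 were higher and 11 lower without overlap, beside 21.8% and 27.4% of all tested. The median difference was -0.066. That median was -0.018 and -0.11 without Sall1 knockout replicates 1 and 2, and -0.15 and 0.020 without control replicates 1 and 2. With the prior that follows the signal, Sostdc1 and Cdh16, a tubule cadherin known to depend on Pax8 in rat thyroid cells (0.45 ± 0.085, SE), were called higher, and Gas1, a target of Wt1 in nephron progenitors (-0.57 ± 0.057), Gdnf and Six2 were called lower. Over all tested, that prior called 0.538% higher and 0.622% lower. Cdh16 was named after its value was seen. Areg and Fgf16, known targets of Wt1, were not well above background.

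Marker lists of the cell types in which the 9 factors are made had medians of either sign. The 15 nephron progenitor genes had a median of -0.51, with 12 lower and 0 higher without overlap, beside 27.4% and 21.8% of all tested. They led with Cited1 at -2.20 ± 0.083 (SE), Osr1, a zinc finger factor of the kidney field, at -0.85 ± 0.064 (SE) and Meox2 at -0.57 ± 0.059 (SE), none passing with the default prior. With the prior that follows the signal 7 of the 15 were called lower and 0 higher, beside 0.622% and 0.538% of all tested. The 7 were Cited1, Osr1, Meox2, Gdnf, Six2, Itga8 and Rspo1. The summed signal of the 15 genes was 106.6 and 115.6 in knockout kidneys and 159.7 and 153.4 in control kidneys. The 15 nascent nephron genes had a median of -0.047 and the 14 tested podocyte genes one of 0.13, with Ptpro, a receptor phosphatase, at 0.74 ± 0.078 (SE), and Robo2 at -0.49 ± 0.065 (SE), none passing with the default prior. With the prior that follows the signal, Robo2 was called lower. The nascent nephron median was 0.070 without control replicate 2. The gonad and adrenal list, of organs that also make Wt1 and Emx2, had a median of -0.11 over 9 tested genes, with Mc2r, the adrenal corticotropin receptor, at -0.61 ± 0.066 (SE), and Amh, Cyp11a1 and Lhx9 not well above background. Its median was 0.019 without Sall1 knockout replicate 1 and 0.018 with normexp background correction, and Mc2r was called lower with the prior that follows the signal.

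Markers of other cells also differed between the groups. The median was 0.50 over 11 macrophage genes, 0.23 over 12 stromal genes, 1.57 over 11 liver and gut genes and 1.15 over 11 skeletal muscle genes. All 11 macrophage genes were higher without overlap, beside 21.8% of all tested. Without control replicates 1 and 2 the stromal median was 0.41 and 0.056 and the muscle median 1.71 and 0.52. With the prior that follows the signal, the endothelial Cldn5, the macrophage receptor Cx3cr1, the stromal Fibin and Penk, and Trf and Apoa2 of the liver list were called higher and Des of the muscle list lower, genes named after their values were seen. Over all tested, that prior called 0.538% higher and 0.622% lower. The summed liver and gut signal was 43.7 and 40.3 in knockout kidneys and 13.9 and 20.2 in control kidneys. That of muscle was 78.5 and 55.2 in knockout kidneys and 45.2 and 22.9 in control kidneys. Cdx2 and Ckm were not well above background. The part of these tissues in the differences of the 9 factors was not tested.

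**Figure D5:**
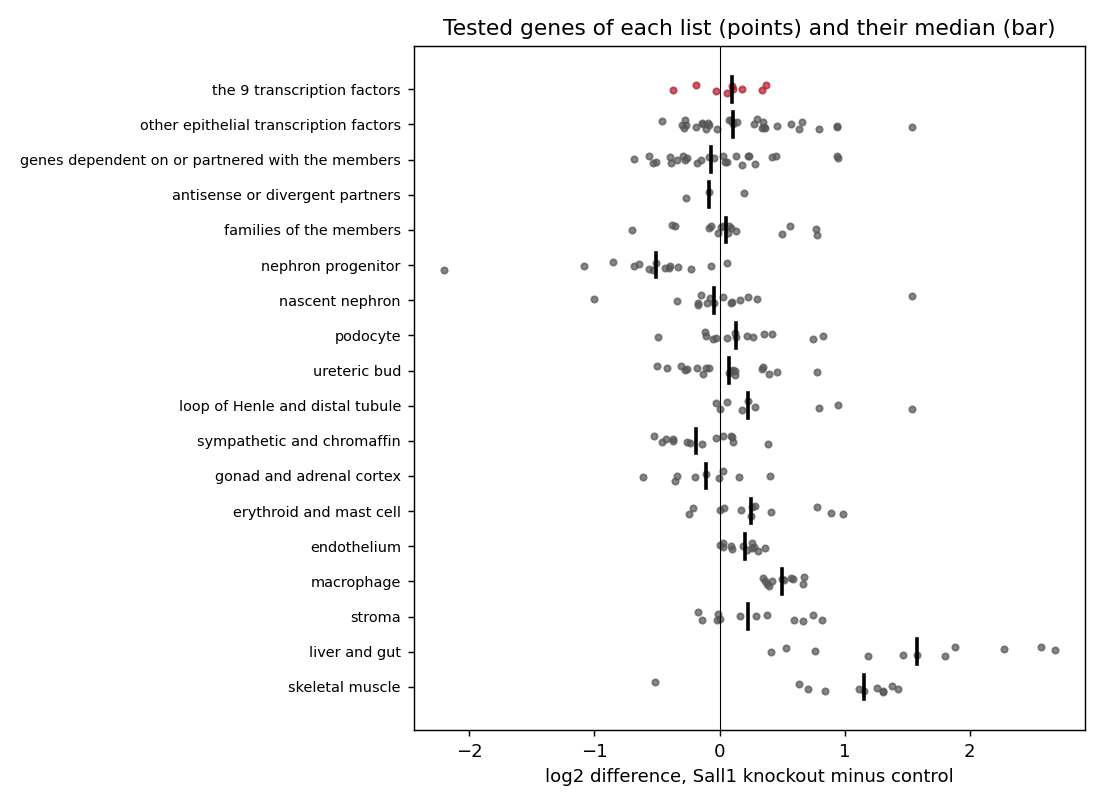
Points are the log2 differences, Sall1 knockout minus control, of the tested genes of each list, bars their median, and the 9 transcription factors are in red at the top. The factors lie between -0.37 and 0.37, nephron progenitor genes mostly below 0, and liver and gut and most muscle genes above 0.

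The named genes whose values over the 4 arrays were most like those of Pax8, the factor with the largest difference, were the RIKEN transcript 4930515G01Rik, the prostaglandin receptor Ptger4 and Tspoap1. The root mean square distance between values centred on each gene's mean was 0.021, 0.024 and 0.028 on the log2 scale over 4 arrays. In all, 351 of 15087 named genes lay within 0.1 of Pax8, so likeness over so few arrays is weak.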

How the data were processed

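Total RNA was amplified, labelled with Cy3 and hybridised to 4 one-colour Agilent arrays, per the labels' protocols. Per the file headers, Agilent Feature Extraction 10.7.3.1 wrote the deposited files for array design 028005 (mm9). The processed signal used here is the deposited intensity, from which the software had taken background, with no scaling between arrays. The value table repeats it, within 1% for 100% of 55249 probes that have 1 spot. All arrays lay on 1 slide, scanned once, per the file headers, so no batch can be tested.

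Signals were divided by the 75th percentile of the non-control spots and set to log2. Spots marked as outliers were dropped (147 to 174 per array, none of the 9 factors) and no spot was saturated. Repeat spots were averaged on the log2 scale, and a probe was kept if each array of at least 1 group showed it well above background (34264 probes). RefSeq accessions matched a GRCm38.p6 table without versions: 26413 probes had a gene symbol and 29268 had none. The probe with the highest mean stood for a gene. Tests used lmFit and eBayes of limma 3.58.1 (R 4.3.3), two-sided, with Benjamini-Hochberg adjustment, 2 residual and 1.80 prior degrees of freedom, and the code was tested on simulated data. Errors are SE of this fit, whose precision is limited by having 4 arrays.

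Replicate numbers follow sample order and pair nothing. The factors, the 17 gene lists and the tests were chosen with earlier results of these data known. Named are Sall1, the 9 factors, up to 4 genes of a list by unadjusted p, and the 3 genes most like the most changed factor; some genes this rule names are left out for length. The alternatives are in the closing section.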

Additional observations from a re-analysis of the deposited data

How the results depend on the processing

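Of the 9 factors, 0 passed under any alternative run: the trended robust prior, array weights, quantile normalization, normexp background correction (offset 50), centring on the median, keeping marked spots, dropping the background filter or asking it of all 4 arrays, averaging the probes of a gene or fitting each alone, taking values from the deposited table, leaving out any 1 array, and an adjusted p under 0.1. Only normexp correction, the trended robust prior and the adjusted p under 0.1 called any gene over all tested. Under the rest no gene passed, so the count of 0 factors there says nothing particular about them. Pax8, Wt1, Gata2 and Gata3 stayed above 0 and Lhx1 and Pou3f3 below 0 in all the alternatives. Pax2 stayed above 0 except on its dimmest probe fitted alone (-0.031). Emx2 turned to 0.056 without Sall1 knockout replicate 1 (adjusted p = 0.860) and 0.0031 without control replicate 2 (adjusted p = 0.994), and Tfap2b to -0.073 without control replicate 1 (adjusted p = 0.775). The cause was not tested. With 1 array left out, differences ranged from -0.11 to 0.056 for Emx2, -0.073 to 0.29 for Tfap2b, 0.26 to 0.48 for Pax8, 0.30 to 0.38 for Gata2, 0.10 to 0.26 for Pax2, 0.027 to 0.097 for Wt1, 0.016 to 0.18 for Gata3, -0.19 to -0.18 for Lhx1 and -0.48 to -0.26 for Pou3f3. The lone array of a group was then assumed to vary like the other group. The ratios ranged from -0.26 to -0.12 (Pax2 to Pax8) and 0.13 to 0.35 (Gata2 to Gata3), and the second Pax2 probe gave -0.088. Over all genes limma called 0 higher and 0 lower, with 1719 and 1465 at an unadjusted p under 0.05. Normexp correction called 19 higher and 22 lower, the trended robust prior 135 and 156, and an adjusted p under 0.1 gave 14 and 13. The counts of factors that did not overlap, an alternative chosen after seeing the data, ranged from 2 to 6 above and 2 to 3 below, while 15.7% to 36% of all tested were above and 20.3% to 42.3% below. The count of 6 came without Sall1 knockout replicate 1 or control replicate 2, where 35.5% and 36% of all tested were above. No paired analysis was possible because the labels give the groups no shared replicate numbers.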

Other observations

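The families of the 9 factors were measured unevenly. Of 30 relatives, 16 were tested, with 5 higher and 2 lower without overlap, beside 21.8% and 27.4% of all tested. The 16 had a median log2 difference of 0.048, and 0 passed in limma. That median was -0.062 without control replicate 1, -0.012 without Sall1 knockout replicate 2 and -0.0014 with quantile normalization. Pax4, Pax5, Pax6, Pax7, Pax9, Pou3f2, Pou3f4, Tfap2d, Tfap2e, Isl1, Lhx4, Lhx5, Lhx8 and Lhx9 were not well above background on both arrays of either group. The smallest unadjusted p belonged to Egr1, an immediate early gene whose zinc fingers resemble those of Wt1, at -0.38 ± 0.078 (SE), and to Pax3, a factor of muscle precursors and neural crest, at 0.50 ± 0.12 (SE). Tfap2c differed by -0.70 ± 0.17 (SE) and Emx1 by 0.57 ± 0.24 (SE). Pax3, Tfap2c and Emx1 were dim, with mean log2 signals of -3.53, -3.64 and -3.50 in knockout kidneys and -4.03, -2.94 and -4.07 in control kidneys. The 11 tested muscle genes had a median of 1.15 on these arrays, and their part in the Pax3 value was not tested.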
